A study of Mus musculus with 18 samples.

Results

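The 43 genes described here encode the machinery by which a nerve terminal fills, docks, primes and releases synaptic vesicles. They were taken by gene symbol, as a set proposed with earlier results of these data known, and all 43 were found among the 25918 gene names of the deposited count table. They were followed in cerebral cortex of BALB/c mice at day 2 after ischemic injury (3 libraries), at day 6 after ischemic injury (3 libraries) and in controls (3 libraries). The labels give no genotype, sex, age, transgene or drug for any of the groups and do not say how the injury was made or what the controls underwent. The injured tissue included the ischemic and the surrounding region. Poly(A) RNA was sequenced in whole tissue, and interparietal skull bone of the same strain at days 2 and 4 and in controls was sequenced alongside it. All levels and changes given here are of RNA, and protein was not measured. No label says that the 3 libraries of a group are separate animals, so the p-values rest on the spread among libraries of a group, which may be technical.

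A vesicle is filled with transmitter by a transporter in its membrane, is brought to the active zone by Rab3 GTPases and the scaffolds Bassoon, Piccolo, RIM and ELKS, and is primed by Munc13 proteins. Release itself is driven by the zippering of a SNARE complex made of a vesicular synaptobrevin and the plasma membrane proteins syntaxin and SNAP-25. Complexins hold the complex until calcium binds a synaptotagmin, and NSF with its SNAP adaptors then takes the spent complex apart. In cortex most terminals release glutamate and a smaller number release GABA.

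The promoters of 3 members are shown. Stx1a and Unc13a had the smallest adjusted p-values of all members at day 2, and Syn1 was chosen for its promoter, which contains the left part of the RE1 element, the site of the repressor REST, which keeps neuronal genes silent in other cells. Sequences are from RefSeq on GRCm38.p6, 5′ to 3′ along the gene's strand, and end where the annotated gene begins. The stretches are chr5:135023232-135023481 (plus strand) for Stx1a, chr8:71671758-71672007 (minus strand) for Unc13a and chrX:20921005-20921168 (minus strand) for Syn1. Capitals mark CCGCCC, the core of a GC box, on either strand in Stx1a and Unc13a, and TTCAGCACC, the left part of RE1, followed by TGACGTCA, the cyclic AMP response element, in Syn1.
Stx1a: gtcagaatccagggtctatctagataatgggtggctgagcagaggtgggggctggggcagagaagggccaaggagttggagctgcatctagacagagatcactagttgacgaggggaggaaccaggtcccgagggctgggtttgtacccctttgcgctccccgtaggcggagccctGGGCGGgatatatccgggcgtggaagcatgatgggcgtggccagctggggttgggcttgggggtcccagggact
Unc13a: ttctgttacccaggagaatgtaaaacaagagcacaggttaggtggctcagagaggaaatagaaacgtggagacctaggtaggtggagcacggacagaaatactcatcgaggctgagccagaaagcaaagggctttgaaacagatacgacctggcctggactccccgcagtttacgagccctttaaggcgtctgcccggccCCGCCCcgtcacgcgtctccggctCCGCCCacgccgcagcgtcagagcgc
Syn1: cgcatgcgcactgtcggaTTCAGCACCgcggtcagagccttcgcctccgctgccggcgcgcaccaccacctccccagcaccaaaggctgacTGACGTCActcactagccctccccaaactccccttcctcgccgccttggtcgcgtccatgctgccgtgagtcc

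RefSeq windows from 250 bases before to 50 bases after a start were at hand for 31 of the 43 members, 39 windows in all, and each motif was searched as those letters on both strands. CCGCCC stood in 24 of the 39 windows (61.5%) and in 35.7% of all 32851 windows. TTCAGCACC stood in 2 of the 39, those of Syn1 and Unc13a, and in 0.371% of all windows; in Unc13a it lies 23 to 31 bases after the start, outside the stretch printed. TGACGTCA stood in 1 of the 39 and in 1.79% of all windows. The 3 motifs do not overlap one another in the printed stretches. A match is a run of letters and not a measured binding site.

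Total counts per library were 17199036 to 18476057 at day 2, 13005050 to 22236424 at day 6 and 23673255 to 27654269 in controls. The rarest member still had 1496 counts and the most abundant 496736 counts over the 9 libraries, and all 43 passed the filter on low counts. Libraries differed in regional markers. The summed level of 8 genes of striatal neurons was 204, 148 and 1249 CPM at day 2, 190, 151 and 159 CPM at day 6 and 192, 519 and 690 CPM in controls, so that day 2 replicate 3 stood apart, with control replicates 2 and 3 next. The summed level of 5 choroid plexus genes was 216 CPM in day 2 replicate 2 and 3.71 to 34.1 CPM in the other 8 libraries. Levels are in CPM, the count divided by library size and scaled, on edgeR's TMM scale, means are given ± SD (n = 3), and a change is a log2 fold change ± its standard error from edgeR's quasi-likelihood fit. Gene positions are on mm10 from GENCODE M21. A gene was called when its p-value, adjusted by Benjamini-Hochberg over all 18151 genes tested, was below 0.05.

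In control cortex the members spanned a wide range when set per kilobase of exon. Snap25, the plasma membrane SNARE, stood first at 471 ± 110.3 CPM per kb (SD, n = 3), followed by the complexin Cplx1 at 369.6 ± 58.1 and the synaptobrevin Vamp2 at 282 ± 4.81. Snap25 and Cplx1 overlapped in their control libraries. Cplx2 (240.3), the calcium sensor Syt1 (223) and Rab3a (214) came next, each overlapping with the one that followed it except Rab3a. At the low end stood Unc13c at 4.17 CPM per kb, Sv2c at 3.70 and Syn3 at 0.750, the last below all libraries of Sv2c. In several families 1 member carried most of the transcript. In controls Vamp2 held 93.9% ± 1.89 of the summed CPM per kb of Vamp1 and Vamp2, Slc17a7 held 87.9% ± 0.386 of the 3 transporters, Rab3a held 83.7% ± 2.86 of the Rab3 genes and Unc13a held 78.8% ± 3.49 of the Unc13 genes (SD, n = 3). Ranks and shares depend on the union of annotated exons taken as length, 10167 bases for Vamp1 and 3809 for Vamp2. Without it, mean control levels were 188 CPM for Vamp1 and 1074 CPM for Vamp2.

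At day 2 after injury more than 1 in 2 of the release genes had fallen, among them the SNAREs Snap25, Vamp2 and Stx1a, the sensor Syt1 and the priming factor Unc13a, and few passed the test at day 6. Of the 43 members, 25 (58.1%) fell at day 2, where 9.99% of all genes tested fell, and 0 rose, where 14.7% of all genes rose. The median log2 change of the members was -0.51, against 0.00 over all genes, and 40 of the 43 changes were below 0. The count of 25 was 20 with day 2 replicate 2 left out and 24 with day 2 replicate 3 left out, the libraries with high choroid plexus and striatal levels. With normalization factors from 16 neuronal genes outside the release machinery it was 21 when their counts were summed and 5 when their geometric mean was used. The second was chosen after the data were seen. The summed counts came mostly from Meg3 and Snhg11, whose changes at day 2 were above 0 (0.11 and 0.11). With TMM factors edgeR and limma voom each called 0 members higher, as did DESeq2, and 0 were higher at an unadjusted p below 0.05 in edgeR. With the geometric-mean factors Syt11 was called higher (0.25, adjusted p = 0.0229). The members took 1.4999%, 1.31% and 1.40% of all counts in the day 2 libraries, 1.69%, 1.52% and 1.56% at day 6 and 1.77%, 1.88% and 1.96% in controls. Each day 2 share lay below each day 6 share, and each day 6 share below each control share. In whole tissue, fewer cells of a type and less RNA per cell cannot be told apart.

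At day 6, 5 members (11.6%) fell, where 2.39% of all genes fell: Doc2b, Cplx2, Rims1, Unc13c and Slc17a6. Again 0 rose, where 7.93% of all genes rose. DESeq2 and limma voom called 0 higher, and 0 were higher at an unadjusted p below 0.05 in edgeR. The median log2 change was -0.21, against -0.02 over all genes. Of the 43 changes 39 were still below 0, against 9500 of the 18151 over all genes. At an unadjusted p below 0.05 in edgeR, 17 members were lower, against 1789 of the 18151 genes. The count of 5 moved with single libraries. It was 2 when day 6 replicate 2 or 3 was left out and 3 when control replicate 2 or 3 was. It was 11 without day 2 replicate 1, 8 when the second day 2 library was left out, and 13 when day 6 and control libraries were fitted without the day 2 libraries. Doc2b and Unc13c remained called in each of these fits.

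Between the injured groups, day 6 minus day 2, 13 members (30.2%) were higher at day 6, where 5.3% of all genes were higher, and 3 (6.98%) were lower, where 6.26% of all genes were lower. The 13 were Syp, Syn1, Stx1a, Syt1, Syt7, Syt13, Doc2a, Rab3a, Rims1, Rims2, Unc13a, Bsn and Slc17a7. The 3 were Doc2b, Unc13c and Slc17a6. This comparison shares its libraries with the comparisons against controls, which share the controls, so that the 3 are not independent of each other. Leaving out day 2 replicate 3 lowered the count of 13 to 8, leaving out day 6 replicate 1 lowered it to 6 and leaving out day 6 replicate 3 lowered it to 5. It was 6 when no normalization factors were used. The count of 3 was 1 without day 2 replicate 3, day 6 replicate 2 or control replicate 2, and 0 without day 6 replicate 1 or day 6 replicate 3.

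**Figure D1:**
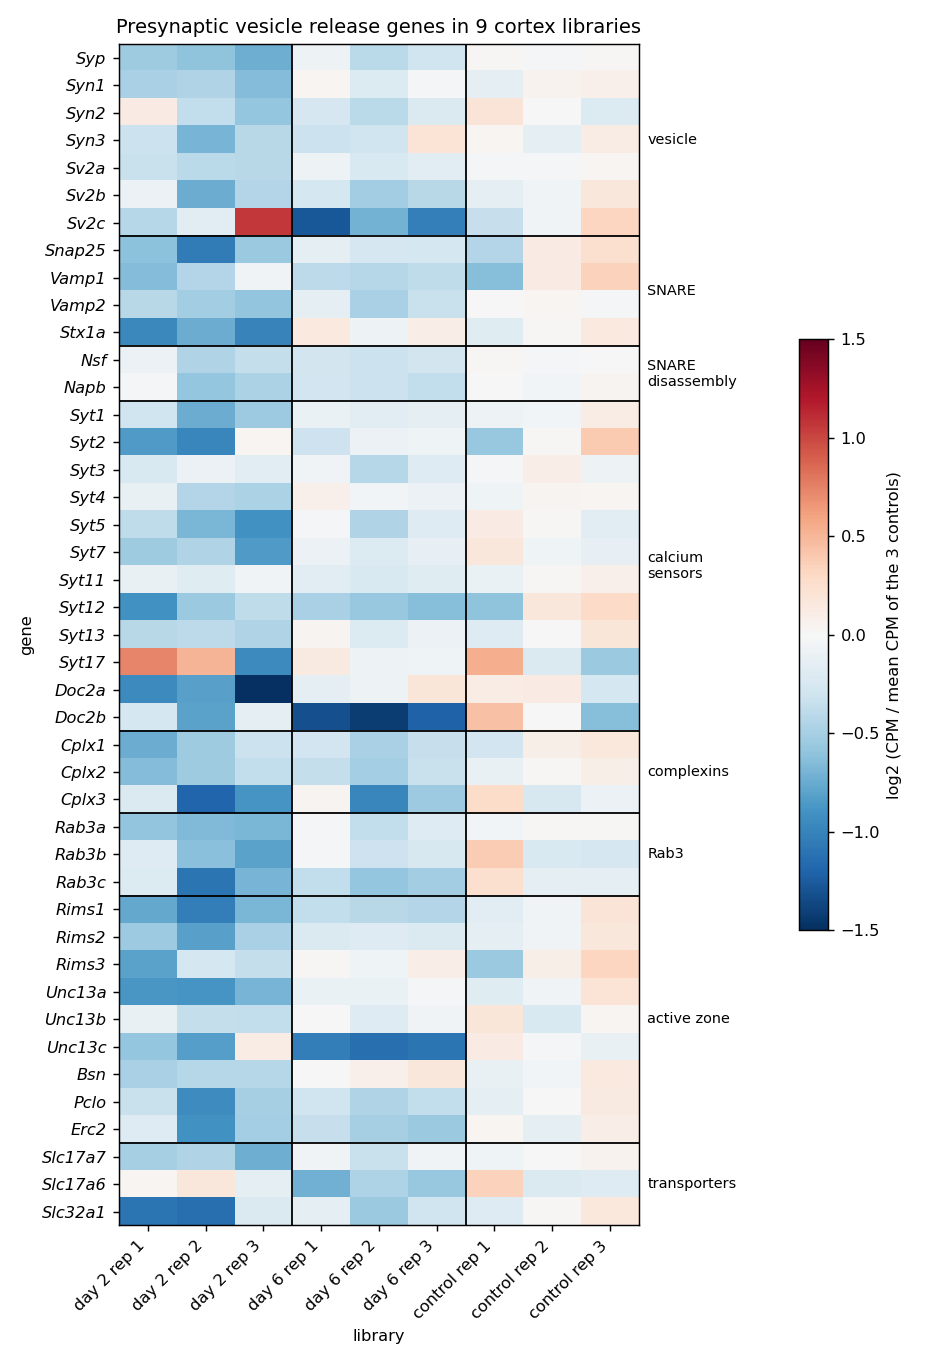
Level of each of the 43 genes (rows, by role) in each of the 9 cortex libraries (columns), as log2 of its CPM over the mean CPM of the 3 control libraries; blue is lower and red is higher. Most rows are blue in the 3 day 2 columns and paler at day 6, whereas Doc2b and Unc13c are darkest at day 6 and Sv2c is darkest red in day 2 replicate 3.

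**Figure D2:**
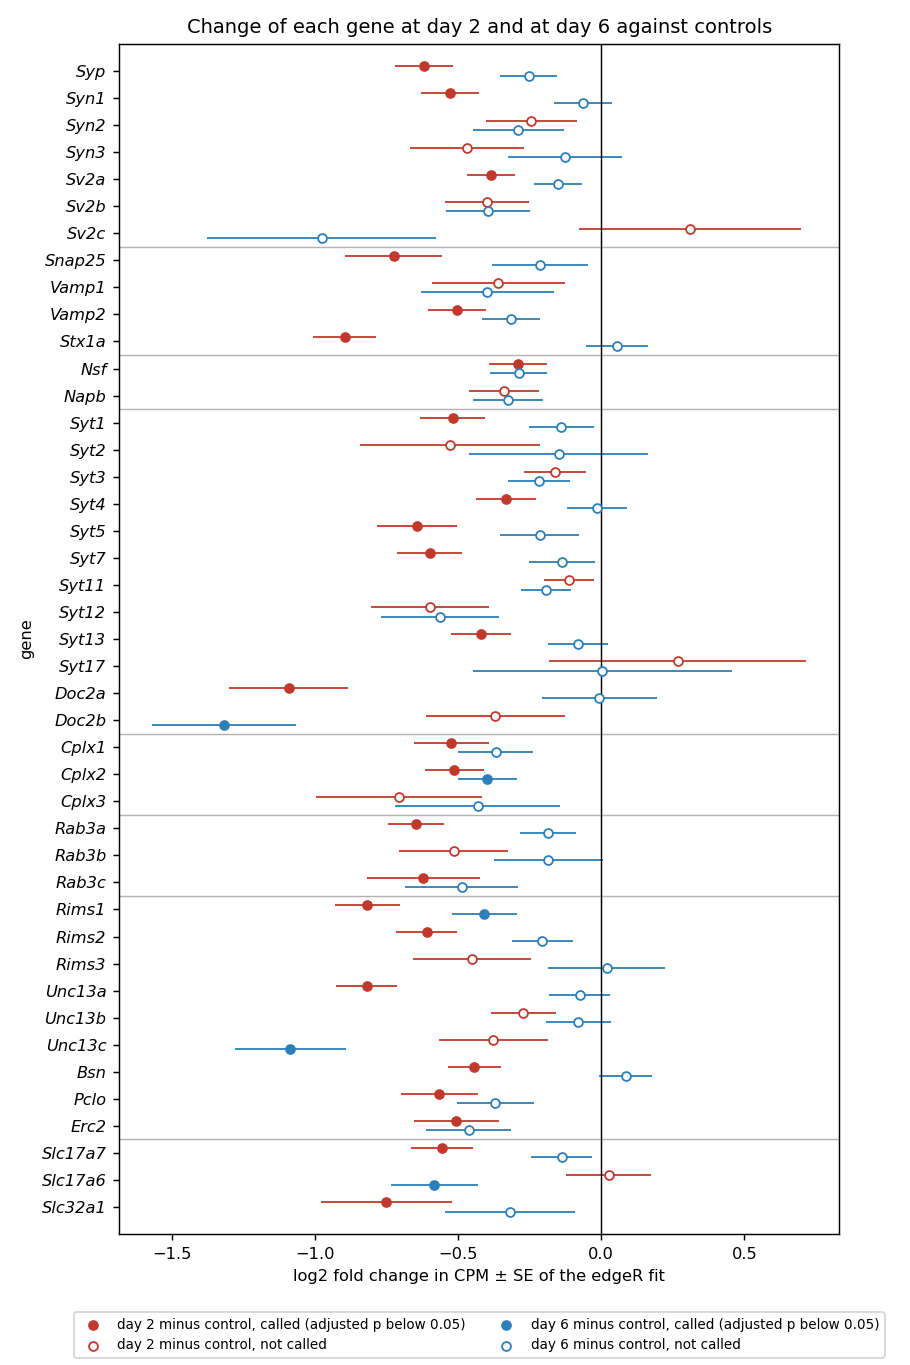
Fitted log2 fold change (horizontal axis) of each gene (vertical axis) at day 2 (red) and at day 6 (blue) against controls, with bars of 1 standard error of the edgeR fit; filled points passed an adjusted p of 0.05. The 25 filled red points all lie below 0, and 5 blue points are filled.

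Among the genes of vesicle membrane proteins and of synapsins, which tether vesicles into a reserve, 3 of 7 fell at day 2. Syp, synaptophysin, a standard marker of vesicles, had 469, 447 and 409 CPM at day 2, 642, 513 and 552 CPM at day 6 and 685, 666 and 684 CPM in controls. All 3 day 2 libraries were below all controls and all day 6 libraries, and the day 6 libraries were below the controls too. It fell by 0.62 ± 0.10 on the log2 scale (adjusted p = 0.000521), was not called at day 6 (-0.25, adjusted p = 0.133) and was higher at day 6 than at day 2 (log2 change 0.36 ± 0.10, adjusted p = 0.0311). The last call was lost without day 2 replicate 3, day 6 replicate 1 or 3 or control replicate 2 (adjusted p = 0.0534 to 0.147). Of its exon bases, 16.8% overlap Gm14703 on the opposite strand, and the strand setting of the counting is not given in the sources used here, so that reads of such pairs cannot be told apart. The same holds for 14.1% of the exon bases of Syn3, 14.5% of those of Syt4 and 17.15% of those of Syt12.

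Syn1, the synapsin highest per kilobase, had 407, 416 and 363 CPM at day 2, 584, 494 and 560.1 CPM at day 6 and 518, 592 and 601 CPM in controls. It was low at day 2 alone, with day 6 libraries inside the control range apart from 1 below it. It fell by 0.53 ± 0.10 on the log2 scale (adjusted p = 0.00168) at day 2, was not called at day 6 (-0.06, adjusted p = 0.759) and was higher at day 6 than at day 2 (log2 change 0.47 ± 0.10, adjusted p = 0.00981), a call lost without day 2 replicate 3 (adjusted p = 0.0518) or day 6 replicate 3 (0.0569). Sv2a, which encodes a vesicle glycoprotein, fell by 0.39 ± 0.08 on the log2 scale (adjusted p = 0.00419) at day 2 as well. Its relative Sv2b had 475, 299 and 369 CPM at day 2, 417, 351 and 377 CPM at day 6 and 459, 485 and 563 CPM in controls, with 1 day 2 library inside the control range, and was called neither at day 2 (-0.40, adjusted p = 0.0653) nor at day 6 (-0.40, adjusted p = 0.114). Syn2 (-0.24, adjusted p = 0.305) and Syn3 (-0.47, adjusted p = 0.106) did not pass the test at day 2.

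All 4 SNARE genes had negative changes at day 2 and 3 of them fell. Stx1a (syntaxin-1A; ENSMUSG00000007207.10, chr5:135023482-135051100, plus strand) had the smallest adjusted p of the members at day 2. It had 151, 176 and 147 CPM at day 2, 325, 278 and 315 CPM at day 6 and 260.3, 297 and 326 CPM in controls. The 3 day 2 libraries lay far below the other 6, and the day 6 libraries lay within the control range. Stx1a fell by 0.90 ± 0.11 on the log2 scale (adjusted p = 6.71e-05) at day 2, which is a mean of 158 ± 15.6 CPM against 294 ± 32.8 CPM in controls (SD, n = 3). At day 6 its change from controls was 0.06 (adjusted p = 0.805), and day 6 exceeded day 2 (log2 change 0.95 ± 0.11, adjusted p = 0.000204).

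Snap25 had 2087, 1542 and 2179 CPM at day 2, 2914, 2697 and 2665 CPM at day 6 and 2351, 3475 and 3770.1 CPM in controls. The day 2 libraries were all below the controls, which themselves were spread widely, and the day 6 libraries lay within the control range. It fell by 0.72 ± 0.17 on the log2 scale (adjusted p = 0.00796) at day 2 and was not called at day 6 (-0.21, adjusted p = 0.494). Vamp2, the main synaptobrevin of cortex, had 808, 748 and 714 CPM at day 2, 974, 765 and 849 CPM at day 6 and 1068, 1094 and 1058 CPM in controls, with no overlap between controls and either injured group. It fell by 0.50 ± 0.10 on the log2 scale (adjusted p = 0.00246) at day 2 and missed the threshold at day 6 (log2 change -0.32 ± 0.10, adjusted p = 0.0662). Vamp1, the synaptobrevin of fast-firing neurons, was not called (-0.36, adjusted p = 0.316 at day 2).

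Of the pair of genes whose products take SNARE complexes apart, 1 fell at day 2. Nsf, the ATPase, had 771, 599 and 640.1 CPM at day 2, 679, 658 and 676 CPM at day 6 and 827, 810.1 and 822 CPM in controls. Every injured library lay below every control, and the day 2 and day 6 groups overlapped. Its change was of the same size at both times, -0.29, adjusted p = 0.0484 at day 2 and -0.29, adjusted p = 0.088 at day 6, so that the first passed the test by a small margin and the second did not. The day 2 call was lost without any of 8 of the 9 libraries (adjusted p = 0.0619 to 0.168) and held without day 2 replicate 1. Napb, the brain form of its SNAP adaptor, had changes of -0.34, adjusted p = 0.0586 at day 2 and -0.33, adjusted p = 0.117 at day 6 and was not called.

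Of the 12 genes of the synaptotagmin and Doc2 families, not all of which bind calcium, 6 fell at day 2: Syt1, Syt4, Syt5, Syt7, Syt13 and Doc2a. Syt1, the sensor of fast synchronous release, had 1509, 1112 and 1268 CPM at day 2, 1733, 1654 and 1674 CPM at day 6 and 1757, 1808 and 2006 CPM in controls. Day 2 libraries were the lowest and controls the highest, with day 6 between them and no overlap. Syt1 fell by 0.52 ± 0.11 on the log2 scale (adjusted p = 0.00404) at day 2, was not called at day 6 (-0.14, adjusted p = 0.502) and was higher at day 6 than at day 2 (log2 change 0.38 ± 0.11, adjusted p = 0.0434). The call between day 6 and day 2 was lost without day 2 replicate 2 or 3, any day 6 library or control replicate 2 (adjusted p = 0.0699 to 0.132).

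Syt7, a slower sensor of asynchronous release, fell by 0.60 ± 0.11 on the log2 scale (adjusted p = 0.00168) at day 2, and Syt5 fell by 0.64 ± 0.14 on the log2 scale (adjusted p = 0.00432). Syt13, which lacks the calcium-binding residues, fell by 0.42 ± 0.10 on the log2 scale (adjusted p = 0.00907), a call lost without control replicate 3 (adjusted p = 0.0535). Syt4, a synaptotagmin induced by activity, fell by 0.33 ± 0.11 on the log2 scale (adjusted p = 0.032). Its call was lost without day 2 replicates 2 or 3, day 6 replicate 3 or control replicates 2 or 3 (adjusted p = 0.0521 to 0.134). Syt11, which lies on membranes of neurons and other cells and does not bind calcium, had 702 to 769 CPM at day 2, 679 to 707 CPM at day 6 and 741 to 839 CPM in controls and was not called (-0.11, adjusted p = 0.408 at day 2). Syt2, the fast sensor of parvalbumin interneurons and brainstem (-0.53, adjusted p = 0.279), Syt3 (-0.16, adjusted p = 0.319), Syt12 (-0.60, adjusted p = 0.051) and Syt17 (0.27, adjusted p = 0.735) did not pass the test at day 2. At day 6, 1 of the 12 genes of these families, Doc2b, fell.

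Of the 3 genes of complexins, small proteins that clamp and then promote fusion, 2 fell at day 2 and 1 at day 6. Cplx1, the form most abundant per kilobase, had 482, 558 and 649 CPM at day 2, 665, 578 and 638 CPM at day 6 and 665, 858 and 904 CPM in controls, and 1 control library lay close to the highest injured ones. It fell by 0.52 ± 0.13 on the log2 scale (adjusted p = 0.00971) at day 2 and was not called at day 6 (-0.37, adjusted p = 0.0964). Cplx2, its forebrain relative, had 754, 818 and 918 CPM at day 2, 923, 831 and 942 CPM at day 6 and 1095, 1198 and 1259.6 CPM in controls. No injured library reached the lowest control, and the day 2 and day 6 libraries overlapped. Cplx2 fell by 0.51 ± 0.10 on the log2 scale (adjusted p = 0.00228) at day 2 and fell by 0.40 ± 0.10 on the log2 scale (adjusted p = 0.0227) at day 6, a day 6 call lost without day 6 replicate 2 (adjusted p = 0.118) or 3 (0.065) or control replicate 2 (0.0868) or 3 (0.0945). Day 6 and day 2 did not differ detectably (0.11, adjusted p = 0.519). Cplx3 (-0.71, adjusted p = 0.102 at day 2), with 7.79 to 21.6 CPM over the libraries, was not called.

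Of the 3 genes of Rab3 GTPases, which mark vesicles for docking, 2 fell at day 2. Rab3a had 316, 302 and 295 CPM at day 2, 472, 368 and 418 CPM at day 6 and 462, 483 and 484 CPM in controls. Its day 2 libraries were tightly grouped below all others, and 1 day 6 library reached the control range. It fell by 0.65 ± 0.10 on the log2 scale (adjusted p = 0.000322) at day 2, was not called at day 6 (-0.18, adjusted p = 0.275) and was higher at day 6 than at day 2 (log2 change 0.46 ± 0.10, adjusted p = 0.00896). Rab3c had 328, 177 and 234 CPM at day 2, 294, 252 and 264 CPM at day 6 and 448, 345 and 343 CPM in controls, with its injured libraries all below the controls. It fell by 0.62 ± 0.20 on the log2 scale (adjusted p = 0.0418), and the call was lost without any of 8 of the 9 libraries (adjusted p = 0.0514 to 0.14), holding without day 2 replicate 1. Rab3b was not called (-0.52, adjusted p = 0.0695).

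At the active zone 6 of 9 genes fell at day 2. Rims1, the scaffold that links Rab3, Munc13 and calcium channels, had 214, 177 and 226 CPM at day 2, 281, 271 and 269 CPM at day 6 and 323, 351 and 415 CPM in controls. The 3 groups did not overlap, with day 2 lowest, day 6 between and controls highest. Rims1 fell by 0.82 ± 0.11 on the log2 scale (adjusted p = 0.000155) at day 2 and fell by 0.41 ± 0.11 on the log2 scale (adjusted p = 0.0328) at day 6, and day 6 exceeded day 2 (log2 change 0.41 ± 0.11, adjusted p = 0.0314). The day 6 call was lost without any day 6 library, control replicate 2 or control replicate 3 (adjusted p = 0.0576 to 0.155), and that between day 6 and day 2 without day 2 replicate 2, any day 6 library or control replicate 2 (adjusted p = 0.0507 to 0.0995).

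Unc13a (Munc13-1, the main priming factor of glutamate terminals; ENSMUSG00000034799.16, chr8:71624417-71671757, minus strand) had 237, 235 and 267 CPM at day 2, 404, 406 and 427 CPM at day 6 and 382, 420.3 and 501 CPM in controls. The day 2 libraries lay far below the other 6, and the day 6 libraries were within the control range. It fell by 0.82 ± 0.11 on the log2 scale (adjusted p = 9.86e-05) at day 2, stood at -0.08 at day 6 (adjusted p = 0.722) and was higher at day 6 than at day 2 (log2 change 0.74 ± 0.11, adjusted p = 0.000911). The genes of the large scaffolds fell at day 2 as well. Bsn, Bassoon, fell by 0.44 ± 0.09 on the log2 scale (adjusted p = 0.00306), and Pclo, Piccolo, fell by 0.57 ± 0.13 on the log2 scale (adjusted p = 0.00729). Rims2 fell by 0.61 ± 0.11 on the log2 scale (adjusted p = 0.000911). Erc2, the ELKS scaffold also called CAST, fell by 0.51 ± 0.15 on the log2 scale (adjusted p = 0.0249), and lost its call without day 2 replicate 2 or 3 or control replicate 1 or 3 (adjusted p = 0.0641 to 0.0898). Rims3 (-0.45, adjusted p = 0.146), Unc13b (-0.27, adjusted p = 0.101) and Unc13c (-0.38, adjusted p = 0.177) were not called at day 2. Each was called lower when 1 library was left out: Rims3 without control replicate 1 (-0.66, adjusted p = 0.00375), Unc13b without day 2 replicate 1 (-0.36, adjusted p = 0.0383) or control replicate 2 (-0.38, adjusted p = 0.0409), and Unc13c without day 2 replicate 3 (-0.70, adjusted p = 0.00336). At day 6 Bsn was not called against controls (0.08, adjusted p = 0.636) and was above day 2 (log2 change 0.53 ± 0.09, adjusted p = 0.00315), whereas for Pclo (0.20, adjusted p = 0.389) and Erc2 (0.04, adjusted p = 0.888) day 6 did not pass the test against day 2.

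The vesicular transporters tell glutamate from GABA terminals. Slc17a7, the glutamate transporter VGLUT1 of cortical neurons, had 711, 738 and 604 CPM at day 2, 973, 799 and 973 CPM at day 6 and 966, 1014 and 1041 CPM in controls. Day 2 libraries were below all others, and 2 of the day 6 libraries lay inside the control range. It fell by 0.56 ± 0.11 on the log2 scale (adjusted p = 0.00187) at day 2 and was higher at day 6 than at day 2 (log2 change 0.42 ± 0.11, adjusted p = 0.0234), a call lost without day 2 replicate 3 or day 6 replicate 1 or 3 (adjusted p = 0.0933 to 0.12). Slc32a1, the GABA and glycine transporter, had 24.3, 23.5 and 44.3 CPM at day 2, 47.2, 35.2 and 42.01 CPM at day 6 and 45.03, 52.1 and 57.9 CPM in controls, with day 2 replicate 3 close to the controls. It fell by 0.75 ± 0.23 on the log2 scale (adjusted p = 0.0367), and the call was lost without day 2 replicate 1 (adjusted p = 0.12) or 2 (0.141), day 6 replicate 3 (0.0573) or control replicate 2 (0.0922) or 3 (0.118). Of 10 interneuron genes outside the set, 7 fell at day 2. Of the exon bases of Slc32a1, 24.9% overlap Gm14205 on the opposite strand.

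In 3 families close relatives passed the test at different times, although the difference between relatives was not tested. Doc2a and Doc2b are high-affinity calcium sensors of spontaneous and asynchronous release. Doc2a (ENSMUSG00000052301.14, chr7:126847416-126852705, plus strand) had 7.92, 8.76 and 4.96 CPM at day 2, 14.01, 14.7 and 17.5 CPM at day 6 and 16.6, 16.7 and 12.8 CPM in controls, with day 2 below all other libraries and day 6 overlapping the controls. It fell by 1.09 ± 0.21 on the log2 scale (adjusted p = 0.00164) at day 2, stood at -0.01 at day 6 (adjusted p = 0.989) and was higher at day 6 than at day 2 (log2 change 1.09 ± 0.21, adjusted p = 0.0052). Doc2b (ENSMUSG00000020848.7, chr11:75768966-75796049, minus strand) had 21.5, 14.8 and 23.5 CPM at day 2, 10.3, 9.62 and 11.1 CPM at day 6 and 35.02, 25.7 and 16.5 CPM in controls, with day 6 below all other libraries and day 2 overlapping the controls. It was not called at day 2 (-0.37, adjusted p = 0.313), fell by 1.32 ± 0.25 on the log2 scale (adjusted p = 0.00561) at day 6 and was below day 2 (log2 change -0.95 ± 0.25, adjusted p = 0.0321). Doc2a thus made up 36.4% ± 11.6 of the summed CPM per kb of the pair at day 2, 69.7% ± 1.59 at day 6 and 49.2% ± 6.18 in controls (SD, n = 3). The exons of Doc2a overlap Ino80e on the opposite strand over 39.4% of their bases, so that its counts are uncertain.

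Among the Munc13 genes Unc13a was called lower at day 2 and Unc13c at day 6. The day 6 call of Unc13c held in all 22 alternative fits, whereas its lack of a call at day 2 depended on day 2 replicate 3. Unc13c (Munc13-3, known best from cerebellar granule cells; ENSMUSG00000062151.13, chr9:73479422-73968966, minus strand) had 24.4, 20.8 and 39.5 CPM at day 2, 17.8, 16.8 and 17.2 CPM at day 6 and 39.8, 36.1 and 34.02 CPM in controls. Its day 6 libraries were nearly equal and below all others, and day 2 replicate 3 was as high as the controls, whereas the other 2 day 2 libraries lay below all controls. Without day 2 replicate 3, Unc13c was lower at day 2 as well (-0.70, adjusted p = 0.00336), and day 6 did not pass the test against day 2 (-0.39, adjusted p = 0.12). Unc13c fell by 1.09 ± 0.19 on the log2 scale (adjusted p = 0.00313) at day 6 and was below day 2 (log2 change -0.71 ± 0.20, adjusted p = 0.0338). Unc13a made up 72.8% ± 1.79 of the family's summed CPM per kb at day 2, 83.1% ± 0.883 at day 6 and 78.8% ± 3.49 in controls, and Unc13c 11.8% ± 3.03 at day 2, 4.99% ± 0.184 at day 6 and 9.67% ± 1.62 in controls (SD, n = 3).

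The glutamate transporters were the third pair. Slc17a6 (VGLUT2, the transporter of thalamic and brainstem inputs; ENSMUSG00000030500.6, chr7:51622006-51671119, plus strand) had 40.4, 44.3 and 35.7 CPM at day 2, 23.9, 28.5 and 26.6 CPM at day 6 and 49.97, 33.8 and 34.6 CPM in controls. All day 6 libraries were below all day 2 and control libraries. It stood at 0.03 at day 2 (adjusted p = 0.928), fell by 0.58 ± 0.15 on the log2 scale (adjusted p = 0.0243) at day 6 and was below day 2 (log2 change -0.61 ± 0.15, adjusted p = 0.0204). The day 6 call was lost without any day 6 library or control replicate 1 (adjusted p = 0.0517 to 0.111). The summed level of 9 genes of thalamic and brainstem neurons was 130, 199 and 111 CPM at day 2, 115, 146 and 132 CPM at day 6 and 133, 88.8 and 78.3 CPM in controls. Changes of these 9 genes at day 6 ranged from -0.50 to 1.74, with 2 below 0. Their relation to the fall of Slc17a6 was not tested.

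The calls of the 3 lower genes between day 6 and day 2 were sensitive to single libraries. Those of Doc2b and Unc13c were also lost with limma voom and with striatal genes as a covariate. Unc13c lost its call too when these groups alone were fitted. That of Doc2b was lost without day 2 replicate 1 or 3 or any day 6 library (adjusted p = 0.0929 to 0.102) and without control replicate 2 (0.05005). That of Unc13c was lost without day 2 replicate 3, any day 6 library or control replicate 2 (adjusted p = 0.0525 to 0.12). That of Slc17a6 was lost without day 2 replicate 2 or day 6 replicate 1 or 3 (adjusted p = 0.0682 to 0.0816). The calls of Stx1a, Doc2a, Rab3a, Unc13a and Bsn as higher at day 6 than at day 2 held without each of the 9 libraries in turn.

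Calls were also gained when 1 library was left out. At day 2, 11 members outside the 25 were called lower in 1 or more such fits. Leaving out day 2 replicate 1 gave Syn2 (-0.47, adjusted p = 0.0125), Sv2b (-0.59, adjusted p = 0.0034), Napb (-0.53, adjusted p = 0.000834), Cplx3 (-1.03, adjusted p = 0.0183), Rab3b (-0.71, adjusted p = 0.0161) and Unc13b. Leaving out day 2 replicate 3 gave Syt2 (-0.91, adjusted p = 0.0211), Syt12 (-0.72, adjusted p = 0.0427) and Unc13c. Leaving out control replicate 1 gave Vamp1 (-0.59, adjusted p = 0.00994), Syt12 (-0.81, adjusted p = 0.00181) and Rims3. At day 6, 12 members were gained as lower (Syp, Sv2b, Sv2c, Vamp1, Vamp2, Nsf, Napb, Syt12, Cplx1, Rab3c, Pclo and Erc2; adjusted p = 0.0045 to 0.0492). Between day 6 and day 2, 5 were gained as higher at day 6 (Snap25, Syt4, Syt5, Rims3 and Slc32a1; adjusted p = 0.0083 to 0.0329).

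**Figure D3:**
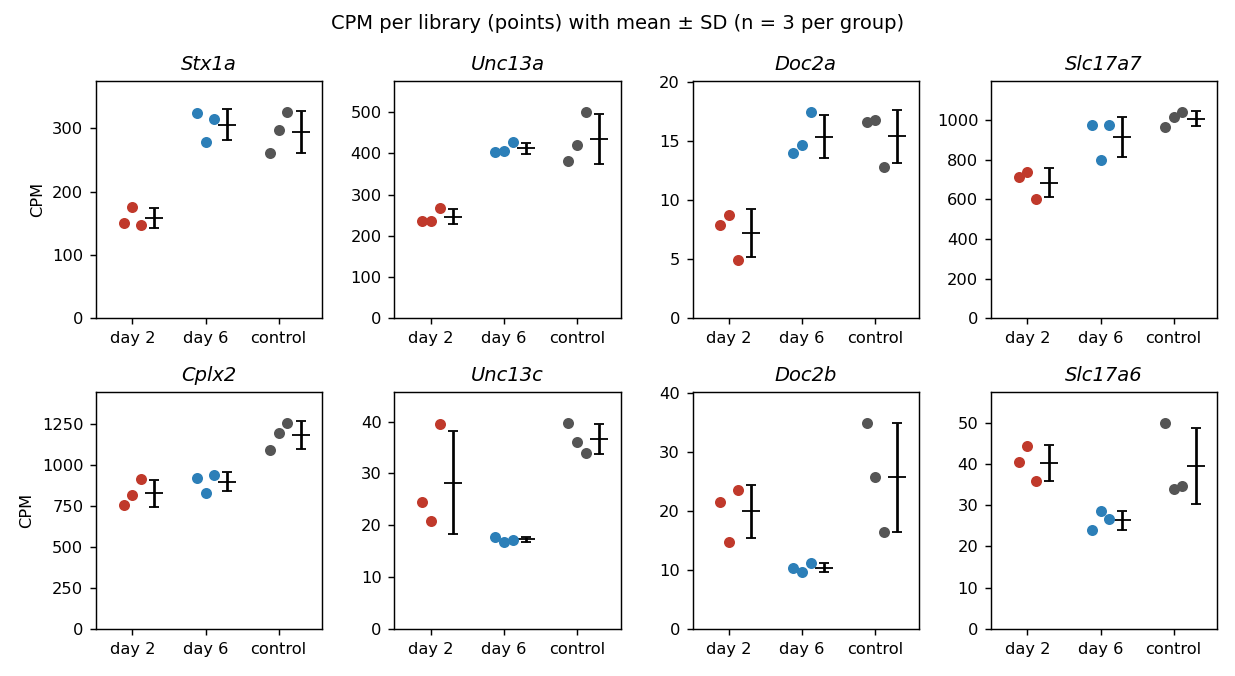
CPM (vertical axes, from 0) in each library (points) with mean and SD (bars, n = 3) for 8 genes at day 2, at day 6 and in controls. Stx1a, Unc13a, Doc2a and Slc17a7 in the upper row are lowest at day 2, and Unc13c, Doc2b and Slc17a6 in the lower row are lowest at day 6; Cplx2 is below the controls at both times.

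The fall at day 2 was set beside genes chosen as neuronal and outside the release machinery. Of 16 such genes, among them the nuclear protein Rbfox3 and the tubulin Tubb3, 9 fell at day 2 with a median log2 change of -0.39, and 2 fell at day 6 (Map2 and Stmn2) with a median of -0.22. Their summed level was 14539, 14066 and 14032 CPM at day 2, 13749.9, 14642 and 14222 CPM at day 6 and 15462, 14845 and 14607 CPM in controls, with day 2 below the controls and day 6 overlapping them. Most of this sum came from Meg3 (mean 5417 CPM in controls) and Snhg11 (3275 CPM). Both had changes of 0.11 at day 2, whereas those of the other 14 genes were below 0. With factors from these summed counts, 21 members were lower at day 2 and 3 at day 6, and between day 6 and day 2, 11 were higher and 3 lower at day 6. When normalization factors were taken from the geometric mean of these 16 genes, a choice made after the data were seen, changes are relative to the neuronal genes, and the median over all genes stood at 0.36 at day 2, 0.21 at day 6 and -0.15 between day 6 and day 2. On this scale 5 members were still lower at day 2: Stx1a (-0.53, adjusted p = 0.00103), Unc13a (-0.45, adjusted p = 0.00184), Rims1 (-0.46, adjusted p = 0.00249), Doc2a (-0.74, adjusted p = 0.0188) and Rab3a (-0.29, adjusted p = 0.0241). Syt11 was higher (0.25, adjusted p = 0.0229), and the changes of 8 members turned from below to above 0, among them the called Nsf (0.06) and Syt4 (0.02). The members' median was -0.15.

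At day 6 on the same scale, Doc2b (-1.11, adjusted p = 0.0159) and Unc13c (-0.86, adjusted p = 0.00975) were lower and Bsn was higher (0.32, adjusted p = 0.0269), with a members' median of 0.01. The changes of 19 members, 0 of them called in the TMM fit, turned from below to above 0. Between day 6 and day 2 the same scale called 6 members higher at day 6 (Syn1, Stx1a, Doc2a, Rab3a, Unc13a and Bsn) and 4 lower (Sv2c, Doc2b, Unc13c and Slc17a6). Stx1a, Doc2a, Rab3a, Rims1 and Unc13a were called lower at day 2 in all 22 alternative fits, this one included.

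**Figure D4:**
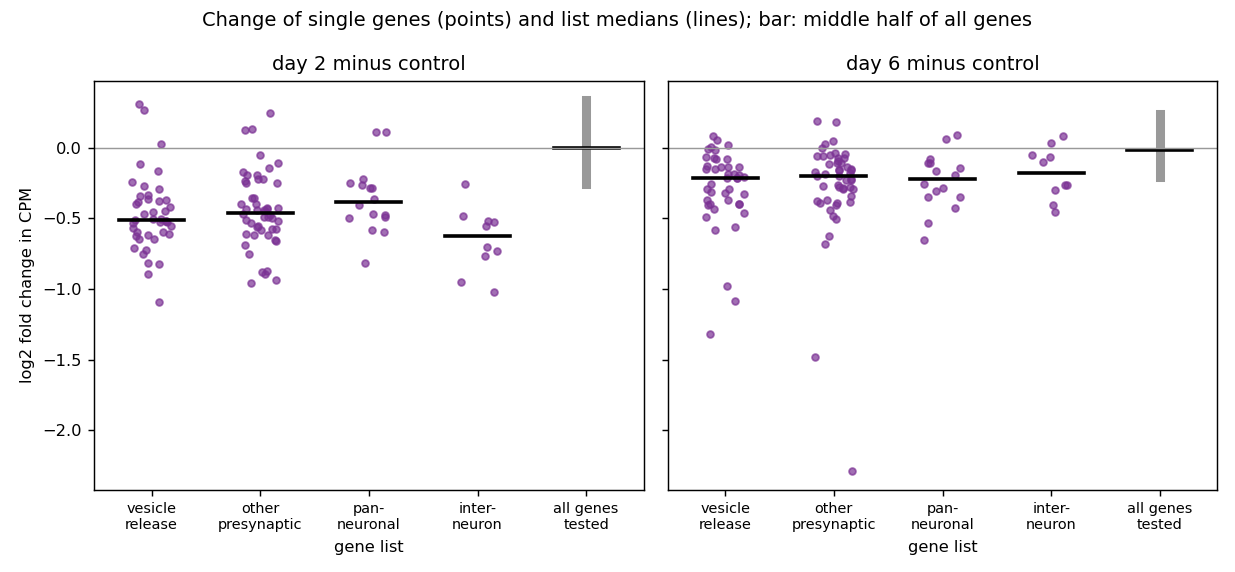
Log2 fold change (vertical axis) of single genes (points) and the median (black line) of 4 gene lists at day 2 (left) and at day 6 (right) against controls, with the median and the middle 50% (grey bar) of all genes tested. All 4 lists have medians below 0 at both times, and each lies nearer to 0 at day 6.

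Of 51 further presynaptic genes, 50 were tested, and 33 of these fell at day 2 with a median of -0.46. Among them were Slc6a17, a vesicular amino acid transporter (log2 change -0.90 ± 0.09, adjusted p = 1.67e-05) and the vesicle protein Syngr1 (-0.65 ± 0.09, adjusted p = 0.000172). At day 6, 2 fell: the tomosyns Stxbp5l (-1.48 ± 0.28, adjusted p = 0.00587) and Stxbp5 (-0.39 ± 0.10, adjusted p = 0.0186), which bind syntaxin in place of synaptobrevin. Between day 6 and day 2, 17 were higher at day 6, among them Slc6a17 (0.67) and the vesicular zinc transporter Slc30a3 (1.05), and 1, Synpr, was lower (-0.65 ± 0.17, adjusted p = 0.0344).

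Genes of other cells were followed in the same 9 libraries. The summed level of 8 reactive astrocyte genes was 3492, 5076 and 4513 CPM at day 2, 1534, 2170.0 and 1911 CPM at day 6 and 347, 256 and 205 CPM in controls, and all 8 rose at both times. The summed level of 8 microglia and macrophage genes was 557 to 764 CPM at day 2, 726 to 1310.4 CPM at day 6 and 236 to 265 CPM in controls, with 7 of 8 higher and 1, P2ry12, lower at day 2 and 8 of 8 higher at day 6. The summed level of 6 neutrophil and monocyte genes was 91.4 to 124 CPM at day 2, 35.1 to 47.03 CPM at day 6 and 7.92 to 11.1 CPM in controls, with 5 of 6 higher at day 2 and 4 of 6 at day 6. For 6 fibroblast genes it was 245 to 458 CPM at day 2, 414 to 1728 CPM at day 6 and 85.9 to 171 CPM in controls, with 2 of 6 higher at day 2 and 4 of 6 at day 6. For 6 endothelial genes it was 239 to 370.2 CPM at day 2, 229.6 to 285 CPM at day 6 and 167 to 180.2 CPM in controls, with 5 of 6 higher at day 2 and 4 of 6 at day 6. For 7 oligodendrocyte genes it was 3416 to 6931 CPM at day 2, 4187 to 4226 CPM at day 6 and 4154 to 7162 CPM in controls, with overlap of all 3 groups. Their part in the changes of the members was not tested.

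Sv2c and Syt17 had the highest changes at day 2 and differed widely between libraries of 1 group. Sv2c, the form of Sv2 found in basal ganglia, had 26.7, 31.98 and 74.999 CPM at day 2, 14.9, 22.02 and 17.7 CPM at day 6 and 28.2, 34.7 and 44.8 CPM in controls, and day 2 replicate 3 exceeded every other library. It was called at neither time (0.31, adjusted p = 0.633 at day 2; -0.98, adjusted p = 0.186 at day 6). Syt17 had 58.3, 50.1 and 18.01 CPM at day 2, 38.4, 33.2 and 33.6 CPM at day 6 and 51.3, 30.1 and 23.7 CPM in controls, with the widest spread at day 2. Among the 3 day 2 libraries, replicate 3 was also highest for Syt2, Unc13c and Slc32a1. The same held for Snap25, Vamp1, Syt11, Syt12, Doc2b, Cplx1, Cplx2, Rims1, Rims2 and Unc13a. Most members, Syt17 among them, were not highest there. With the striatal genes as a covariate, a choice made after the data were seen, 26 members were called lower at day 2, with Stx1a at -0.90 and Unc13a at -0.78, and at day 6 Doc2b (-1.32, adjusted p = 0.0225), Unc13c (-0.82, adjusted p = 0.0121) and Slc17a6 (-0.79, adjusted p = 0.00507) were still lower, Rims1 (adjusted p = 0.279) and Cplx2 (adjusted p = 0.173) were not called, and Syt17 was called lower (-0.73, adjusted p = 0.0324).

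**Figure D5:**
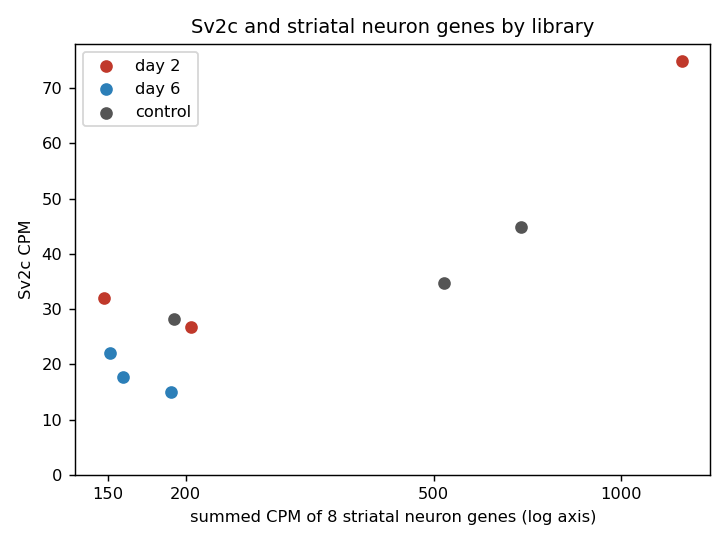
CPM of Sv2c (vertical axis) against the summed CPM of 8 genes of striatal neurons (horizontal axis, log scale) in each of the 9 cortex libraries, coloured by group. Day 2 replicate 3 has the highest value on both axes, at 74.999 and 1249 CPM, and the 3 day 6 libraries are low on both.

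In skull the members were also counted, at a much lower level. Their summed level, as CPM of all counts, was 482, 805 and 784 at day 2, 796, 648 and 723 at day 4 and 1917, 2203 and 1978 in controls, against 13068 to 19649 in the cortex libraries. Every injured skull library was below every control. Per 100 counts of Snap25 there were 5.42 to 25.5 counts of Slc17a7 and 19.2 to 65.9 of Syp in skull libraries, against 27.6 to 47.9 and 18.1 to 29.2 in cortex libraries; the ranges of Slc17a7 did not overlap and those of Syp did. The skull values were not tested between groups, and the source of these reads was not tested.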

How the data were processed

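TRIzol extraction, DNase treatment and poly(A) selection preceded paired Illumina reads of 150 bases per end, per the labels' protocols. HISAT2 2.1.0 and mm10 are named in the submitters' processing notes. How reads were assigned to genes (program, annotation, strand) is not given in the sources used here. Raw read counts per gene, with no normalization, were deposited by the authors for 18 libraries. The table has 26783 lines for 25918 names, and 865 surplus identical lines (49 names in 16 or 81 copies) were removed. Columns were assigned to groups by their names.

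The 9 cortex libraries were fitted together in R 4.3.3 with edgeR 4.0.16 (filterByExpr by group, TMM, robust quasi-likelihood fit, two-sided tests, Benjamini-Hochberg over 18151 genes, prior count 0.125). Levels per kilobase use the union of GENCODE M21 exons. The alternatives were RLE and upper quartile factors, no factors, factors from summed pan-neuronal counts, no filter, a stricter filter (90 counts and 1 CPM in 3 libraries), DESeq2 1.42.0, limma 3.58.1 voom, a replicate block, a separate fit for each pair of groups, an adjusted p of 0.01 and leaving out each library. Factors from the geometric mean of the pan-neuronal genes and the striatal covariate were added after seeing the data. The procedure was tested on simulated data in which 200 genes were changed at day 2, in both directions. That setting does not test the choice of normalization factors when many more genes change.

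Members and lists were chosen with earlier results of these data known. Values in every library are given, within each role, for the member highest per kilobase in controls and those with the smallest adjusted p at day 2 and at day 6; Sv2c, Syt17 and Slc32a1 were added after their values were seen. Of the other presynaptic genes, up to 3 called genes with the smallest adjusted p are named per comparison and direction, apart from a gene that is not reported here.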

Additional observations from a re-analysis of the deposited data

How the results depend on the processing

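At day 2, 4485 genes and 25 members (all lower) were called. The count of genes was 2616 at an adjusted p of 0.01, and with geometric-mean pan-neuronal factors it was 7073 with 5 members lower and 1 higher; with summed pan-neuronal factors 21 members were lower. At day 6 (1873 genes, 5 members lower), the members lower were 3 with summed pan-neuronal factors, 8 with a replicate block, 13 when only the compared groups were fitted, 2 of 941 genes at an adjusted p of 0.01, and 2 lower with 1 higher of 3037 genes with geometric-mean factors; the striatal covariate called 1107 genes. Between day 6 and day 2 (2099 genes, 13 members higher, 3 lower), 6 were higher without factors and 6 with geometric-mean factors, 1 was lower with limma voom, and 6 were higher and 0 lower of 776 genes at an adjusted p of 0.01. The split of higher and lower genes, 2671 and 1814 at day 2 in the fit reported, was 6733 and 340 with geometric-mean factors; between day 6 and day 2, 962 and 1137 became 644 and 1963 without factors.

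With geometric-mean factors 8 of the 43 members turned sign at day 2 (2 of them called, Nsf 0.0644 and Syt4 0.0246, and Syt11, which became called at 0.25), 19 at day 6 and 6 between day 6 and day 2. With the striatal covariate 2 did at day 2, 5 at day 6 (Syt17 became called at -0.73) and 2 between day 6 and day 2; the cause was not tested. Leaving out single libraries gave 3136 to 4622 genes, 19 to 30 members lower and 0 to 0 higher at day 2; 1005 to 2198 genes, 2 to 11 lower and 0 to 0 higher at day 6; and 910 to 2329 genes, 5 to 15 higher and 0 to 3 lower between day 6 and day 2. Calls kept in all 22 alternatives numbered 5 of 25 at day 2, 2 of 5 at day 6 (Doc2b and Unc13c) and 5 of 16 between day 6 and day 2 (Stx1a, Doc2a, Rab3a, Unc13a and Bsn). Some day 2 calls were lost in 1 alternative only, the geometric-mean factors. These were the calls of Syp, Syn1, Sv2a, Snap25, Vamp2, Syt1, Syt5, Syt7, Cplx1, Cplx2, Rims2, Bsn, Pclo and Slc17a7. Deviations of same-numbered libraries correlated above 0.1 in 3 of 9 pairs (r = -0.04 to 0.23). Between differently numbered libraries r was -0.30 to 0.14. No label pairs samples by number, so the fit reported used no pairing, but these values do not exclude it. With the replicate block, 32 members were lower at day 2, 8 at day 6 and 4 between day 6 and day 2, where 14 were higher.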
